A study of Homo sapiens with 30 samples.

Results

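The genes described here encode factors that assemble the large (60S) subunit of the ribosome. They were chosen by symbol from a written list of such factors, drawn up with earlier results of these data known, and all 33 were found among the 21112 genes of the expression tables. RNA was sequenced from cultured lines of diffuse large B-cell lymphoma (DLBCL), the germinal center B-cell-like (GCB) lines K422 and HT and the activated B-cell-like (ABC) lines TMD8 and OCI-Ly10. Cells had received AZD8186, an inhibitor of the lipid kinases PI3Kβ and PI3Kδ, at 0.5 µM, or the solvent DMSO, which the sample labels name as the control while the series description calls the controls untreated. Each AZD8186 library has a DMSO library of the same line and time, giving 15 pairs in 30 libraries, at 6, 12, 18 and 24 h except that TMD8 has no 12 h pair. With 1 library for each line, treatment and time, and with no separate cultures given in the sources, the p-values reflect the spread among the libraries sequenced. That spread may be technical. It also holds differences in response between times and, where lines are pooled, between lines.

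A ribosome is built in the nucleolus, where RNA polymerase I makes a long precursor RNA that is folded, chemically modified and cut while ribosomal proteins are added. Assembly factors ride on the growing particle for part of the way and leave before the subunit is used, so they are not found in finished ribosomes. Growth signals through PI3K, AKT and mTOR and the transcription factor MYC are known to stimulate ribosome production, and fast-growing lymphoma cells need much of it.

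The total of the expected counts (read numbers per gene as estimated by the program RSEM) was 15820230 to 23579029 per library, and ribosomal RNA took 0.690% to 4.35% of it. Every member had at least 294 counts in every library, and all 33 passed the filter on low counts in every comparison. B-cell markers were present in all lines. The markers of the GCB subtype summed to 314 to 481 TPM (transcripts scaled to a fixed library total, per length) in K422 and HT and 15.2 to 50.5 TPM in TMD8 and OCI-Ly10, and the markers of the ABC subtype to 13.9 to 62.0 TPM in K422 and HT and 682 to 2163 TPM in TMD8 and OCI-Ly10. The GCB marker LMO2 was highest in the ABC line TMD8 (5.16 to 35.4 TPM), against 0 in HT, 0.19 to 0.66 TPM in K422 and 0 to 0.42 TPM in OCI-Ly10. K422 also held RNA of the T-cell genes CD3D (61.6 to 87.3 TPM) and CD3G (82.1 to 116 TPM) and of the stromal gene DCN (154 to 187 TPM under AZD8186 and 98.1 to 127 TPM under DMSO). The T-cell marker CD3E had only 0.58 to 1.65 TPM there. CD2 and the stromal markers COL1A1, COL1A2, COL3A1 and PDGFRB were listed at 0 in all K422 libraries. The myeloid marker CD68 had 15.1 to 40.4 TPM in TMD8, where the other 4 myeloid markers were under 1 TPM in every library. In bulk RNA, fewer cells of a type and less RNA per cell cannot be told apart.

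Together the 33 genes took less of the counts under AZD8186 than under DMSO. In the GCB lines their share was 0.486% to 0.687% (median 0.592%, n = 8) under AZD8186 and 0.734% to 0.824% (median 0.791%, n = 8) under DMSO, and the groups did not overlap. In the ABC lines it was 0.558% to 0.787% (median 0.665%, n = 7) under AZD8186 and 0.772% to 0.848% (median 0.791%, n = 7) under DMSO, and the ranges overlapped. The largest contributor was NPM1, which encodes the abundant nucleolar chaperone nucleophosmin.

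Levels differed widely among the members on the TPM scale, which accounts for gene length. Under AZD8186 the median NPM1 level over 15 libraries was 1868 TPM, and under DMSO it was 2165 TPM (1929 to 2756). PA2G4, which encodes a protein that binds pre-ribosomes and growth-factor receptors, came next, with 230.2 TPM under AZD8186 and 373 TPM (235 to 495) under DMSO. At the low end were URB2 with 7.86 TPM under AZD8186 and 14.7 TPM (7.78 to 22.2) under DMSO, NOC3L with 11.3 TPM under AZD8186 and 14.2 TPM (11.2 to 48.2) under DMSO, and NVL with 9.98 TPM under AZD8186 and 11.6 TPM (8.26 to 17.4) under DMSO. Apart from NPM1, whose lowest DMSO library lay above the highest of every other member, neighbours in this order had overlapping ranges in DMSO, with WDR12 above RPF2 as the other exception, so the order is not sharp. Across the 33 members the change under AZD8186, given in the next paragraphs, had little relation to the level in DMSO (Pearson's r = 0.014 and Spearman's rho = -0.18 in the GCB lines, 0.17 and -0.030 in the ABC lines). The points share libraries, and the values are a description.

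**Figure D1:**
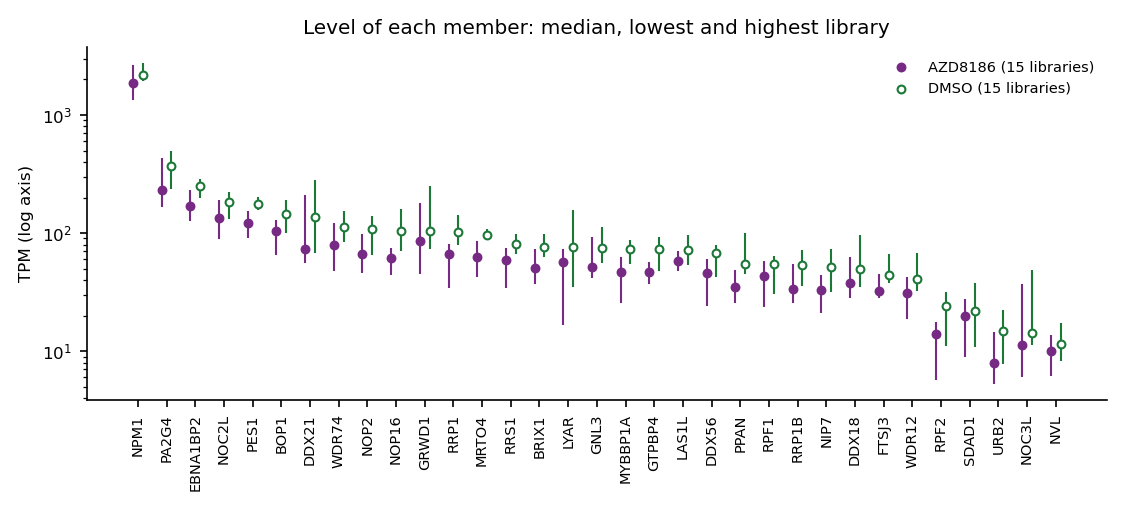
Level of each of the 33 members in TPM (log axis) as the median (points) and the lowest and highest library (lines) over 15 AZD8186 libraries (filled) and 15 DMSO libraries (open), ordered by the DMSO median. NPM1 stood far above the rest at 2165 TPM in DMSO and NVL was lowest at 11.6 TPM, and the AZD8186 median lay below the DMSO median for every member.

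In the GCB lines nearly the whole set fell under AZD8186. Of the 33 members 32 were called lower and 0 higher, and 1 missed the threshold, by edgeR's quasi-likelihood test at an adjusted p under 0.05 with line and time as terms, where 23.5% of all 10965 genes tested were lower. The median log2 fold change of the members was -0.53, against 0.025 over all genes, and single members lay between -0.86 and -0.11. The exception was SDAD1, a relative of the yeast protein Sda1 that acts in nuclear steps of 60S assembly, with -0.11 (SE 0.045, adjusted p = 0.053). In the ABC lines 25 members were called lower, 8 missed the threshold and 0 were higher, where 13.8% of all 11419 genes were lower. Their median was -0.29, against 0.0072 over all genes, and all 33 values were below 0. The 8 were BOP1, FTSJ3, LAS1L, NPM1, NVL, RPF1, RRS1 and WDR74, with values between -0.23 and -0.0079. The count in the ABC lines was 15 without the OCI-Ly10 pair at 18 h. On log2(TPM + 1), a scale on which the median of all genes was -0.15 in the ABC lines, the members had a median of -0.49 and all 33 were called lower. Over all genes that scale called 4279 lower and 620 higher in the ABC lines, where the counts gave 1577 lower and 1750 higher.

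Direction was shared between single pairs of libraries as well. A log2 ratio of CPM (counts scaled to a fixed library size, with TMM factors) below 0 in all 8 GCB pairs was seen for 31 members, where 14.5% of all 11286 genes had it, and in all 7 ABC pairs for 23 members, where 10.9% of all genes had it. In all 15 pairs 22 members were lower, against 4.54% of all genes. Every AZD8186 library lay below every DMSO library of the line for 31 members in K422 (17.2% of all genes), 28 in HT (10.2%), 19 in TMD8 (9.48%) and 16 in OCI-Ly10 (8.54%). For 11 members this held in all 4 lines, namely PPAN, DDX21, GTPBP4, NOP2, NOP16, RRP1, URB2, NOC2L, NOC3L, GRWD1 and MYBBP1A, and for NPM1 in none.

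**Figure D2:**
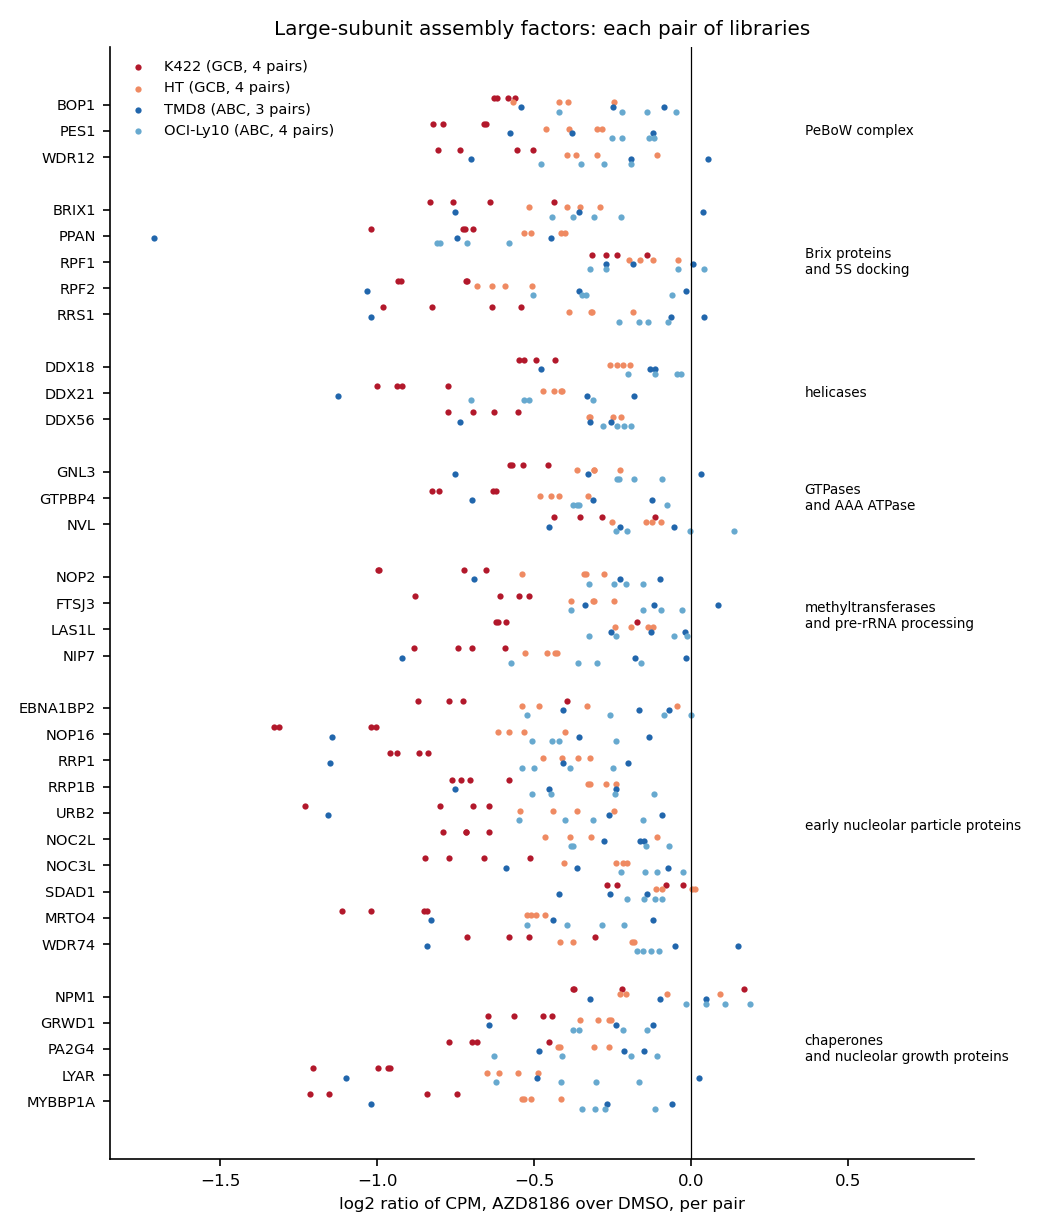
Log2 ratio of CPM, AZD8186 over DMSO, for each member (rows, by role) in each pair of libraries (points, coloured by line). Most points lay left of 0, PPAN in TMD8 at 6 h was lowest at -1.71, and NPM1 scattered around 0.

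BOP1, PES1 and WDR12 form the PeBoW complex, which is needed to process the precursor of 28S and 5.8S ribosomal RNA. PES1 (chr22:30576625-30607083, here and for the other genes in GENCODE 29 on GRCh38) in K422 had 151, 143, 175 and 165 CPM under AZD8186, against 262, 254, 277 and 259 CPM under DMSO, at 6, 12, 18 and 24 h in this and the following sentences of this kind. In HT it had 229.6, 199.5, 216 and 195 CPM under AZD8186, against 279.7, 246, 298 and 256 CPM under DMSO. In both GCB lines the treatments did not overlap, and PES1 was lower in 8 of 8 pairs. In TMD8, at 6, 18 and 24 h, it had 262, 292 and 309.7 CPM under AZD8186, against 391, 380.1 and 337 CPM under DMSO. In OCI-Ly10 it had 328, 294, 291 and 265 CPM under AZD8186, against 359.8, 319, 347 and 309 CPM under DMSO. The ranges overlapped in OCI-Ly10 and not in TMD8. The log2 fold change of PES1 was -0.56 in the GCB lines (SE 0.064, adjusted p = 9.42e-06) and -0.26 in the ABC lines (SE 0.066, adjusted p = 0.0104).

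WDR12 (chr2:202874782-203014798) in K422 had 55.9, 49.4, 62.6 and 55.1 CPM under AZD8186, against 82.2, 86.5, 88.9 and 91.9 CPM under DMSO. HT libraries had 60.8, 53.3, 52.3 and 49.4 CPM under AZD8186, against 65.7, 68.8, 64.4 and 65.1 CPM under DMSO. As for PES1, no AZD8186 library of a GCB line reached a DMSO library of that line. In TMD8 it had 44.1, 67.7 and 72.3 CPM under AZD8186, against 71.9, 77.4 and 69.7 CPM under DMSO. OCI-Ly10 libraries had 62.6, 62.3, 56.0 and 55.4 CPM under AZD8186, against 71.6, 75.7, 78.0 and 70.7 CPM under DMSO. TMD8 at 6 h was the lowest ABC library, and at 24 h TMD8 had more under AZD8186 than under DMSO. Its log2 fold change was -0.48 in the GCB lines (SE 0.072, adjusted p = 7.61e-05) and -0.29 in the ABC lines (SE 0.086, adjusted p = 0.0194), where it did not pass without the OCI-Ly10 pair at 18 h (adjusted p = 0.0774) or at 24 h (adjusted p = 0.0514).

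BOP1, which bridges the other proteins of the complex, in K422 had 202, 184, 157 and 144 CPM under AZD8186, against 303, 284, 241 and 213 CPM under DMSO. The HT values were 215, 157, 156 and 149 CPM under AZD8186, against 255, 206, 231 and 200.1 CPM under DMSO. The HT ranges overlapped because the AZD8186 library at 6 h lay above the DMSO libraries at 12 and 24 h, and each pair by itself was lower under AZD8186. TMD8 libraries had 165, 277 and 285 CPM under AZD8186, against 239.6, 330.0 and 302 CPM under DMSO. The OCI-Ly10 values were 279, 279, 255 and 206 CPM under AZD8186, against 308, 289, 297 and 276 CPM under DMSO. BOP1 fell in the GCB lines (log2 fold change -0.51, SE 0.057, adjusted p = 6.78e-06). In the ABC lines BOP1 was lower in 7 of 7 pairs (exact permutation test of the signs over pairs, two-sided unadjusted p = 0.0156). That is the smallest p that 7 pairs allow, and any gene lower in all 7 has it. There were 23 such members, and 10.9% of all 11286 genes were such. The test takes time points of the same line as independent. By edgeR the value of -0.23 (SE 0.11) had an adjusted p of 0.127, and of 0.0124 with the pair as a block. BOP1 passed by edgeR as well without the TMD8 pair at 6 h (adjusted p = 0.0184) and without the OCI-Ly10 pair at 6 h (adjusted p = 0.0123).

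Of the proteins with a Brix domain and the factors that dock the 5S particle, PPAN stood out. PPAN, the relative of yeast Ssf1, lies at chr19:10106289-10111634 and had the largest mean change of any member in the ABC lines. In K422 it had 40.4, 45.2, 48.9 and 43.8 CPM under AZD8186, against 82.1, 74.5, 81.1 and 71.0 CPM under DMSO. In HT there were 63.5, 58.7, 66.3 and 60.7 CPM under AZD8186, against 90.7, 85.0, 87.7 and 81.0 CPM under DMSO. The groups did not overlap even across these lines, with 66.3 CPM in the highest AZD8186 library and 71.0 CPM in the lowest DMSO library. The TMD8 values were 73.0, 103 and 99.4 CPM under AZD8186, against 239, 173 and 136 CPM under DMSO. In OCI-Ly10 there were 111, 104, 85.3 and 79.9 CPM under AZD8186, against 183, 156, 149 and 140.2 CPM under DMSO. The ranges did not overlap in either ABC line, and in both lines DMSO was highest at 6 h. On the log2 scale the fold change was -0.82 in the ABC lines (SE 0.11, adjusted p = 0.00022) and -0.64 in the GCB lines, each lower in all pairs. PPAN shares 1447 exon bases with the readthrough gene PPAN-P2RY11, which had 183 to 832 counts where PPAN had 794 to 3466, so part of its reads was divided by estimation.

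RPF2 and RRS1 bring the 5S RNA with its ribosomal proteins into the early 60S particle. RPF2 had 35.2 to 46.5 CPM under AZD8186 and 61.4 to 75.2 CPM under DMSO in the GCB lines, and 23.1 to 39.0 CPM under AZD8186 and 32.9 to 47.3 CPM under DMSO in the ABC lines. RRS1 had 51.9 to 83.8 CPM under AZD8186 and 87.3 to 103 CPM under DMSO in the GCB lines, and 57.7 to 97.9 CPM under AZD8186 and 84.8 to 117 CPM under DMSO in the ABC lines. The GCB ranges stood apart for both genes and the ABC ranges did not. RRS1 had -0.53 in the GCB lines (SE 0.075, adjusted p = 5.09e-05) and -0.23 in the ABC lines (SE 0.098, adjusted p = 0.0939), and RPF2 passed in both, with -0.37 in the ABC lines. BRIX1, another Brix protein, had -0.54 and -0.34 and passed in both. RPF1, the human relative of yeast Rpf1, changed least in this group, with -0.20 in the GCB lines (SE 0.042, adjusted p = 0.00131) and -0.15 in the ABC lines (adjusted p = 0.0804).

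Helicases unwind the precursor RNA during assembly, and all 3 passed in both subtypes. DDX21 (chr10:68956128-68985073), a helicase that binds both ribosomal DNA and small nucleolar RNAs, in K422 had 221, 212, 297 and 257 CPM under AZD8186, against 442, 402, 508 and 494 CPM under DMSO. In HT, where its level was highest, it had 684, 667, 717 and 702 CPM under AZD8186, against 950.0, 903, 955 and 937 CPM under DMSO. The mean log2 ratio of DDX21 was -0.91 in K422 and -0.44 in HT. In TMD8 there were 302, 463 and 506 CPM under AZD8186, against 659, 583 and 574 CPM under DMSO. In OCI-Ly10 it had 261, 273, 283 and 265 CPM under AZD8186, against 325, 391, 461 and 384 CPM under DMSO. No ranges overlapped within a line. The log2 fold change of DDX21 was -0.68 in the GCB lines (SE 0.078, adjusted p = 8.92e-06) and -0.53 in the ABC lines (SE 0.091, adjusted p = 0.00102). DDX56, whose yeast relative is Dbp9, had -0.48 in the GCB lines and -0.31 in the ABC lines, and DDX18, whose yeast relative is Has1, had -0.38 and -0.16.

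Among the nucleotide-driven factors GTPBP4 (yeast Nog1), a GTPase of early and middle 60S particles, had -0.58 in the GCB lines (SE 0.060, adjusted p = 3.50e-06) and -0.33 in the ABC lines (SE 0.066, adjusted p = 0.00282). GNL3, the nucleolar GTPase nucleostemin, had -0.43 and -0.25 and passed in both. NVL, an AAA ATPase that strips factors from the particle, changed less, with 21.0 to 26.1 CPM under AZD8186 and 22.9 to 30.6 CPM under DMSO in the GCB lines (log2 fold change -0.24, SE 0.052, adjusted p = 0.00141). In the ABC lines it had 19.4 to 25.9 CPM under AZD8186 and 22.2 to 26.6 CPM under DMSO, with overlapping ranges, and did not pass (-0.15, adjusted p = 0.195). Over all DMSO libraries NVL had the lowest median TPM of the members.

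The factors that modify, cut or otherwise process the RNA were lower in the GCB lines in all 4 cases. NOP2, a methyltransferase that makes 5-methylcytosine in 28S RNA, had -0.62 in the GCB lines (SE 0.075, adjusted p = 1.41e-05) and -0.28 in the ABC lines (SE 0.066, adjusted p = 0.00702). NIP7, a processing factor, had -0.61 and -0.35 and passed in both. FTSJ3, a 2'-O-methyltransferase, and LAS1L, the nuclease that makes the cut in the second internal spacer, passed in the GCB lines (-0.49 and -0.35) and not in the ABC lines (-0.14 with adjusted p = 0.117, and -0.15 with adjusted p = 0.097). In the GENCODE 29 annotation 874 of the 5212 exon bases of FTSJ3 overlap PSMC5 on the opposite strand, and 957 of the 4749 of NIP7 overlap COG8. Members of other groups have such overlaps too. Of the 2862 exon bases of NOP16, 344 overlap ARL10 and 227 overlap HIGD2A. For EBNA1BP2 668 of 3561 overlap CFAP57, and for GTPBP4 928 of 6540 overlap IDI2. Without stated strand the reads of such stretches cannot be told apart.

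Proteins of the early nucleolar particle included the member with the largest mean change in the GCB lines, NOP16 (chr5:176383938-176388975). K422 libraries had 40.2, 40.1, 50.5 and 45.4 CPM under AZD8186, against 100.029, 101, 101 and 92.1 CPM under DMSO. In HT it had 56.5, 51.8, 52.2 and 50.2 CPM under AZD8186, against 84.5, 68.6, 80.0 and 72.7 CPM under DMSO. In K422 the highest AZD8186 library had 50.5 CPM of NOP16 and the lowest DMSO library 92.1 CPM. In TMD8 it had 48.7, 74.1 and 70.8 CPM under AZD8186, against 108, 94.9 and 77.7 CPM under DMSO. OCI-Ly10 libraries had 60.4, 55.2, 51.3 and 44.5 CPM under AZD8186, against 71.4, 73.9, 73.0 and 60.5 CPM under DMSO. The treatments did not overlap within any line. The log2 fold change of NOP16 was -0.86 in the GCB lines and -0.45 in the ABC lines (SE 0.097, adjusted p = 0.00404).

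MRTO4 (chr1:19251539-19260128) encodes a relative of the stalk protein P0 that holds its place on the particle until late steps. The K422 values were 68.1, 66.6, 82.0 and 73.8 CPM under AZD8186, against 138, 144, 148 and 132 CPM under DMSO. HT libraries had 108.9, 102, 108.998 and 94.4 CPM under AZD8186, against 155, 140.3, 154 and 136 CPM under DMSO. No GCB ranges overlapped. TMD8 libraries had 119.8, 154 and 161 CPM under AZD8186, against 213, 209 and 175 CPM under DMSO. The OCI-Ly10 values were 181, 145, 155 and 117 CPM under AZD8186, against 209.8, 176, 204 and 168 CPM under DMSO. The OCI-Ly10 ranges overlapped, since the AZD8186 library at 6 h lay above the DMSO libraries at 12 and 24 h. On the log2 scale the fold change was -0.74 in the GCB lines (SE 0.073, adjusted p = 2.57e-06) and -0.39 in the ABC lines (SE 0.089, adjusted p = 0.00552).

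RRP1 and RRP1B are paralogs related to yeast Rrp1 (RRP1 at chr21:43789513-43805293, RRP1B at chr21:43659548-43696079). Reads of stretches that paralogs share are divided by estimation. RRP1 in K422 had 73.3, 67.7, 80.9 and 75.3 CPM under AZD8186, against 141, 132, 148 and 135 CPM under DMSO. Its HT values were 94.3, 87.2, 96.1 and 89.1 CPM under AZD8186, against 126, 109.2, 133 and 114 CPM under DMSO. RRP1B in K422 had 114, 120.1, 138 and 121 CPM under AZD8186, against 186, 179.8, 234 and 202 CPM under DMSO. Both genes were separated by treatment in K422 at all times. RRP1B in HT had 182, 177, 205 and 185 CPM under AZD8186, against 228, 214, 257 and 218 CPM under DMSO. RRP1 in TMD8 had 62.5, 90.3 and 104 CPM under AZD8186, against 139, 120.0 and 120.0 CPM under DMSO. RRP1B in TMD8 had 145, 184 and 204 CPM under AZD8186, against 245, 251 and 242 CPM under DMSO. TMD8 at 6 h of AZD8186 was the lowest ABC library for both. RRP1 in OCI-Ly10 had 128, 125, 112 and 110.4 CPM under AZD8186, against 167, 149, 163 and 157 CPM under DMSO. RRP1B in OCI-Ly10 had 171, 201, 155 and 152 CPM under AZD8186, against 185, 238, 219.8 and 206 CPM under DMSO. Only RRP1B overlapped between treatments there, through its low DMSO library at 6 h. RRP1 had a log2 fold change of -0.66 in the GCB lines (SE 0.075, adjusted p = 8.31e-06) and -0.48 in the ABC lines (SE 0.095, adjusted p = 0.00257), and RRP1B had -0.50 in the GCB lines (SE 0.065, adjusted p = 2.32e-05) and -0.39 in the ABC lines (SE 0.071, adjusted p = 0.00143).

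The rest of this group covered a wide range. URB2 had -0.63 in the GCB lines and -0.43 in the ABC lines and passed in both. EBNA1BP2, NOC2L and NOC3L, whose yeast relatives are Ebp2, Noc2 and Noc3, had -0.53, -0.53 and -0.49 in the GCB lines and -0.22 each in the ABC lines, and passed in both. WDR74, which NVL removes from the particle, had -0.42 in the GCB lines (SE 0.059, adjusted p = 4.53e-05) and -0.17 in the ABC lines (SE 0.099, adjusted p = 0.202). SDAD1 was the only member that passed in the ABC lines (-0.20, SE 0.066, adjusted p = 0.0355) and not in the GCB lines, and its subtype difference of 0.10 (SE 0.067) did not pass (adjusted p = 0.343).

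LYAR and MYBBP1A were among the 4 members with the largest mean changes in the GCB lines. LYAR, annotated as a nucleolar protein that regulates cell growth (chr4:4267701-4290169), in K422 had 69.0, 69.3, 71.1 and 59.1 CPM under AZD8186, against 138, 135, 139 and 136 CPM under DMSO. In HT there were 51.5, 44.2, 44.7 and 43.1 CPM under AZD8186, against 72.3, 64.9, 68.4 and 67.8 CPM under DMSO. The mean log2 ratio of LYAR in K422 was -1.03, second to that of NOP16 there (-1.17). The TMD8 values were 25.7, 34.0 and 38.3 CPM under AZD8186, against 55.2, 47.9 and 37.7 CPM under DMSO. In OCI-Ly10 there were 95.7, 90.036, 87.0 and 79.0 CPM under AZD8186, against 108, 111, 116 and 122 CPM under DMSO. In TMD8 the ranges overlapped through the 24 h pair, and in OCI-Ly10 they stayed apart. The log2 fold change of LYAR was -0.82 in the GCB lines and -0.43 in the ABC lines (SE 0.096, adjusted p = 0.00482).

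MYBBP1A (chr17:4538897-4555631), which binds RNA polymerase I and pre-ribosomal RNA, in K422 had 109.4, 97.2, 133 and 127 CPM under AZD8186, against 244, 226, 239 and 213 CPM under DMSO. In HT it had 191, 169, 200.2 and 178 CPM under AZD8186, against 276, 246, 286 and 238 CPM under DMSO. The treatments did not overlap in a GCB line. In TMD8 there were 123, 214 and 239 CPM under AZD8186, against 249, 257 and 249.969 CPM under DMSO. In OCI-Ly10 it had 209, 238, 217 and 209 CPM under AZD8186, against 253, 258, 276 and 259 CPM under DMSO. In TMD8 the library at 6 h was far below the other 2. Its log2 fold change was -0.75 in the GCB lines (SE 0.080, adjusted p = 4.37e-06) and -0.33 in the ABC lines (SE 0.098, adjusted p = 0.0209), where it did not pass without the OCI-Ly10 pair at 18 h (adjusted p = 0.069). GRWD1, a chaperone of the ribosomal protein RPL3, had -0.42 and -0.30, and PA2G4 had -0.51 and -0.31, and both passed in both subtypes.

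NPM1 (chr5:171387116-171411137) was the only member whose treatments overlapped in every line. In K422 there were 1941, 1562, 1414 and 1459.9 CPM under AZD8186, against 1729, 1819, 1835 and 1890.0 CPM under DMSO. HT libraries had 1974, 1849, 1674 and 1671 CPM under AZD8186, against 1853, 1950.1, 1935 and 1958 CPM under DMSO. In both GCB lines AZD8186 was above DMSO at 6 h and below it from 12 h on. In TMD8 it had 2563, 1863 and 1941 CPM under AZD8186, against 2484, 2328 and 2081 CPM under DMSO. OCI-Ly10 libraries had 3304, 2917, 3093 and 2788 CPM under AZD8186, against 3202, 2564, 2875 and 2824 CPM under DMSO. The ranges overlapped in all 4 lines, and in OCI-Ly10 3 of 4 pairs were higher under AZD8186. On the log2 scale the fold change was -0.16 in the GCB lines (SE 0.063, adjusted p = 0.0411), which did not pass with the pair as a block (adjusted p = 0.0754) or when any one pair later than 6 h was left out (adjusted p = 0.0595 to 0.145). In the ABC lines it was -0.0079 (SE 0.068, adjusted p = 0.942), and it was 0.045 without the TMD8 pair at 18 h and 0.011 without that at 24 h. NPM1 has many processed pseudogenes with nearly the same sequence, which makes its count uncertain.

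**Figure D3:**
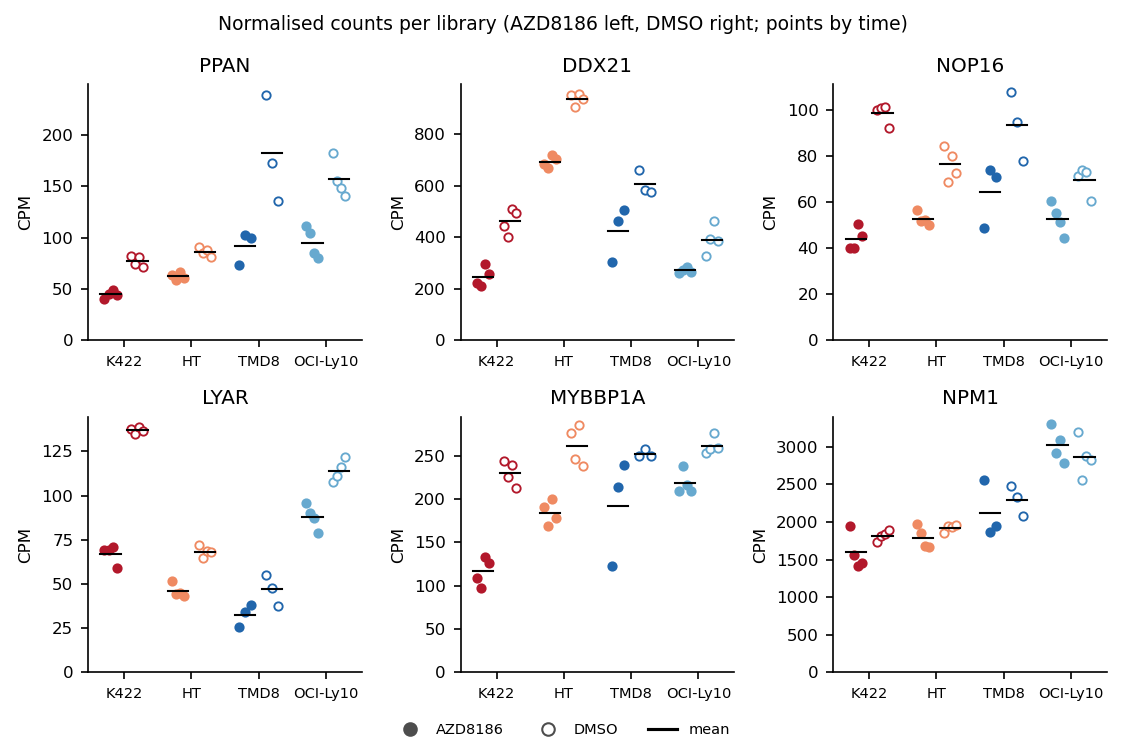
TMM-normalised CPM of 6 members in each library (points, in order of time within each group), with AZD8186 (filled) left of DMSO (open) for each line and the mean as a bar, on axes that start at 0. PPAN, DDX21 and NOP16 did not overlap between treatments in any line, LYAR and MYBBP1A were lowest against DMSO in K422, and NPM1 overlapped in every line.

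Promoters of 4 members with large changes, PPAN and NOP16 with an ETS-type motif and LYAR and MYBBP1A with an E-box, are printed here to show what motif-bearing members look like in sequence. RefSeq's windows (GRCh38.p14) run from 250 bases before to 50 after a start site, 300 bases in all, and 27 of the 33 members were matched by symbol. Short motifs were searched on both strands. CACGTG, the palindromic E-box that MYC with MAX can bind, was in a window of 10 of these 27 members (37.0%) and of 8.78% of all 27305 genes with a window. CCGGAAG, the core of sites of ETS-family factors, was in a window of 14 members (51.9%) and of 12.2% of all genes. The 27305 genes include many not tested here for low counts or absence, whereas every member was well expressed. The share among expressed genes was not computed, so these shares do not show a trait of assembly factors. The motif's letters are in capitals, 5′ to 3′ on the gene's strand.
PPAN, chr19:10106112-10106411, plus strand: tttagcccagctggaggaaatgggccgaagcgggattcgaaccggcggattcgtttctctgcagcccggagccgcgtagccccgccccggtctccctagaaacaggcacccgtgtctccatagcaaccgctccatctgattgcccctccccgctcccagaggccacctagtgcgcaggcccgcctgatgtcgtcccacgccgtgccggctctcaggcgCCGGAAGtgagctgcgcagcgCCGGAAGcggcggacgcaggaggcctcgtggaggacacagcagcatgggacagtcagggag
NOP16, chr5:176388549-176388848, minus strand: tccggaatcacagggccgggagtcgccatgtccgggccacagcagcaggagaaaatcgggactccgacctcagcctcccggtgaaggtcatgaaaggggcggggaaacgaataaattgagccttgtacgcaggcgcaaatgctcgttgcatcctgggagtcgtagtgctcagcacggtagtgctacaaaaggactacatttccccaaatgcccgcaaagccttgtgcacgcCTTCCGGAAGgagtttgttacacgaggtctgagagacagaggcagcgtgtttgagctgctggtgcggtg
LYAR, chr4:4289972-4290271, minus strand: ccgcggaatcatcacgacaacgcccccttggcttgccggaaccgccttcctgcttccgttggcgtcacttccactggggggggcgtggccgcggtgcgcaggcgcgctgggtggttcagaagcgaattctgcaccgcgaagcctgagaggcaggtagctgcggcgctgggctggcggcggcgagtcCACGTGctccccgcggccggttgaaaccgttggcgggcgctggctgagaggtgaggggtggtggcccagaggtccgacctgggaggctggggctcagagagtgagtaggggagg
MYBBP1A, chr17:4555335-4555634, minus strand: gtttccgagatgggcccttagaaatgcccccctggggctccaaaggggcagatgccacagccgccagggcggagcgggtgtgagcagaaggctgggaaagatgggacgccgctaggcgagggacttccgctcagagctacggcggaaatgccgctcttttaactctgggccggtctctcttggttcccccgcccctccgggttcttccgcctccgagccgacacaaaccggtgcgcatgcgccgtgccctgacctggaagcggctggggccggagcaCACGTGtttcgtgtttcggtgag
PPAN holds CCGGAAG starting 32 and 11 bases before its start site, and NOP16 holds it on both strands in 1 overlapping stretch that begins 19 bases before. LYAR holds CACGTG 64 bases before the start and MYBBP1A holds it 27 bases after.

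The E-box was also in a window of DDX21, EBNA1BP2, GNL3, MRTO4, NOC3L, NOP2, PES1 and SDAD1. Members with CACGTG had a median log2 fold change of -0.59 in the GCB lines and -0.27 in the ABC lines, and the 17 members with a window and without it had -0.49 and -0.30. For CCGGAAG the medians were -0.53 in the GCB lines and -0.31 in the ABC lines with the motif, and -0.51 and -0.28 in the 13 members without it. SDAD1, the member that changed least in the GCB lines, holds an E-box 228 bases before its start. A match is a run of letters and not a shown binding site.

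The 2 GCB lines differed in the size of the fall. In K422 alone 31 members were lower (24.0% of 10614 genes were), with a median log2 fold change of -0.72, and in HT alone 31 were lower (18.9% of 10729 genes were, of 37.5% called in all), with a median of -0.37. SDAD1 and NPM1 did not pass in either line. The difference between the lines, tested as an interaction with the pair as a block, was called for 23 members, all with the larger fall in K422, where 9.33% of 10965 genes differed in that direction and 7.30% in the other. The median difference was -0.33, against -0.0013 over all genes. The smallest p-values were those of RRP1 (-0.51, SE 0.065, adjusted p = 0.000845), NOP16 (-0.64, SE 0.090, adjusted p = 0.0014), DDX21 (-0.48, SE 0.073, adjusted p = 0.00204), MRTO4 (-0.46, SE 0.072, adjusted p = 0.00229) and RRP1B (-0.41, SE 0.069, adjusted p = 0.00326). The count was 15 without the HT pair at 12 h and 14 without that at 18 h. CD3D, CD3G and DCN were present in K422 in both treatments, while CD3E was low and CD2 and the other stromal markers were listed at 0. The part of these genes in the difference was not tested. Across the 33 members the mean log2 ratio in K422 and that in HT were alike in order (Pearson's r = 0.89, Spearman's rho = 0.85, a description only, since the members come from the same libraries).

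No member was called different between the ABC lines. In OCI-Ly10 alone 22 members were lower (14.6% of 11500 genes were), with a median of -0.24, and the count was 14 without the pair at 12 h and 12 without that at 18 h. In TMD8 alone, with 3 pairs, 0 were called by edgeR (1.23% of 11214 genes were lower and 2.36% higher, 3.59% in all), although all 33 values were below 0 with a median of -0.34, and 21 had an unadjusted p under 0.05. There 10 were lower without the pair at 6 h, and limma on log2(TPM + 1) called 18. On that scale the median of all genes in TMD8 was itself -0.042, -0.21 and -0.25 at 6, 18 and 24 h. The shares of all genes called in these settings are not given here, so the counts alone are no result about the members. The smallest adjusted p in TMD8 was that of PPAN, with -0.96 on the log2 scale (SE 0.22, adjusted p = 0.0637). The difference TMD8 minus OCI-Ly10 was called for 0 members by edgeR (0.429% of 11419 genes were called), and 0 had an unadjusted p under 0.05, with 0 called also without the block. Their median difference was -0.14.

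Between the subtypes few members differed by the test. The difference GCB minus ABC was called for 3 members, each with a larger fall in the GCB lines, where 6.08% of 11286 genes differed in that direction and 7.32% in the other, so 3 of 33 is near the background. They were FTSJ3 (-0.33, SE 0.094, adjusted p = 0.0245), BOP1 (-0.26, SE 0.081, adjusted p = 0.0417) and NOC2L (-0.30, SE 0.095, adjusted p = 0.0475). PPAN ran the other way, with 0.20 (SE 0.14, adjusted p = 0.392). The median difference was -0.21, against 0.0044 over all genes. The count was 16 without the TMD8 pair at 6 h, 6 without the HT pair at 6 h or at 24 h, 0 without the K422 pair at 18 h and 1 without any other K422 pair, the OCI-Ly10 pair at 6 or 12 h or the TMD8 pair at 18 or 24 h. With no block it was 7. Across the 33 members the log2 fold changes of the GCB lines and of the ABC lines had Pearson's r = 0.69 and Spearman's rho = 0.81, also a description over members of the same libraries.

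Over time the lines took different courses. In K422 the median log2 ratio over the members was -0.66, -0.76, -0.64 and -0.65 at 6, 12, 18 and 24 h. In HT it was -0.31, -0.36, -0.40 and -0.39. Both GCB lines had most of their fall by 6 h and kept it. In TMD8 it was -0.70, -0.32 and -0.10 at 6, 18 and 24 h. In OCI-Ly10 it was -0.14, -0.18, -0.35 and -0.35. TMD8 thus started with a median close to that of K422 and had the one nearest 0 of any line at 24 h, when 25 members were lower and 8 higher, while OCI-Ly10 went the other way. The median of all 11286 genes was within 0.033 of 0 in every pair.

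A contrast of 18 and 24 h with 6 and 12 h found 0 members in the GCB lines and 0 in the ABC lines by edgeR (0 of 10965 and 0 of 11419 genes were called, 0%), and 1 member in the GCB lines and 4 in the ABC lines had an unadjusted p under 0.05. After the values per pair had been seen, the slope over hours was compared between TMD8 and OCI-Ly10 by edgeR with the pair as a block. The slope in TMD8 was more positive for 32 of 33 members, by a median of 0.82 log2 units per 18 h (-0.015 over all genes), and 18 passed, where 2.55% of 11419 genes passed in that direction and 4.55% in all. LYAR had 1.52 (SE 0.22, adjusted p = 0.00151) and PPAN had 1.42 (SE 0.21, adjusted p = 0.00156), and NPM1, the only negative member, had -0.14 (adjusted p = 0.802). The count was 0 without the OCI-Ly10 pair at 6 h, 1 without the TMD8 pair at 6 h, 10 without the OCI-Ly10 pair at 24 h and 11 without that at 18 h, and the median stayed between 0.76 and 0.92. This comparison was chosen for the pattern it measures and is no independent support for it.

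MYC, whose product is known to activate genes of ribosome production, was far lower at 6 h and not lower later in TMD8. In TMD8 MYC had 63.0, 168 and 164 CPM under AZD8186, against 162, 149 and 148 CPM under DMSO. Its log2 ratio there was -1.36 at 6 h, 0.18 at 18 h and 0.15 at 24 h. In the edgeR comparison of slopes, chosen after the values per pair were seen, MYC in TMD8 differed from MYC in OCI-Ly10 by 1.51 per 18 h (SE 0.28, adjusted p = 0.00566). The MYC slope without single pairs is not given here, and this value is no independent support for the pattern. In OCI-Ly10 MYC had 164, 231, 209 and 215 CPM under AZD8186, against 166, 239.9, 207 and 209 CPM under DMSO. There MYC hardly differed between treatments while the members were lower. Over the ABC lines MYC did not pass, with -0.13 (SE 0.14, adjusted p = 0.502). The value was 0.047 when the TMD8 pair at 6 h was left out and 0.061 when both pairs at 6 h were. In K422 MYC had 206, 213, 229 and 253 CPM under AZD8186, against 257, 241, 273 and 266 CPM under DMSO. The HT values were 135, 139, 146 and 154 CPM under AZD8186, against 162, 175, 176 and 177 CPM under DMSO. MYC was lower in 8 of 8 GCB pairs, with a fitted log2 value of -0.25 (SE 0.038, adjusted p = 0.000104). The K422 minus HT difference of MYC was 0.055 (SE 0.070, adjusted p = 0.633), where 23 members were called below 0. The part of MYC in the members' changes was not tested.

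**Figure D4:**
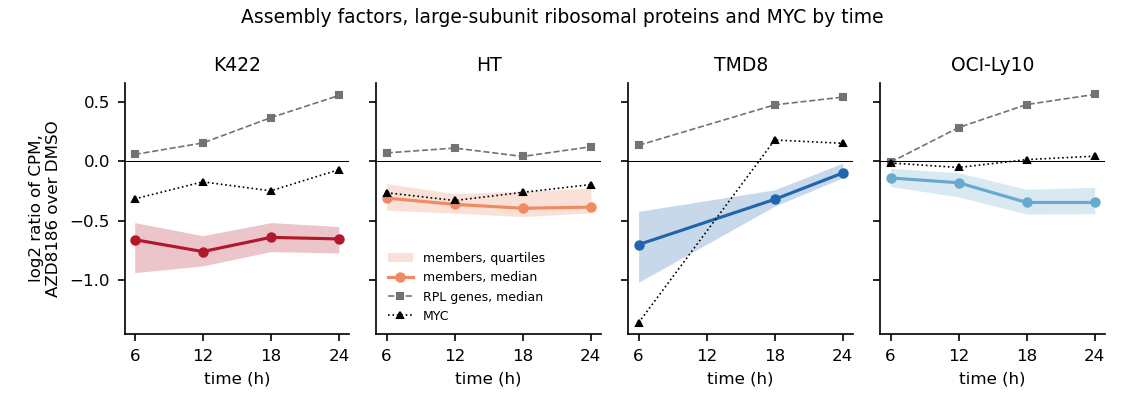
Log2 ratio of CPM, AZD8186 over DMSO, by hours of treatment in each line, as the median (circles) and quartiles (band) of the 33 members, the median of 47 large-subunit ribosomal protein genes (squares) and MYC (triangles). The members stayed between -0.76 and -0.64 in K422 and between -0.40 and -0.31 in HT, came closer to 0 with MYC in TMD8 and moved away from 0 in OCI-Ly10, while the ribosomal protein genes were above 0 in all pairs except OCI-Ly10 at 6 h (-0.0096).

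Time in culture by itself moved few members. In the 15 DMSO libraries 4 members fell with hours (4.33% of 12596 genes did) and 0 rose (2.90% did, 7.22% in all changed), and the median over the members was -0.073 per 18 h, against -0.0055 over all genes. These were PPAN (-0.37, SE 0.082, adjusted p = 0.0116), WDR74 (-0.29, SE 0.072, adjusted p = 0.0203), RRS1 (-0.24, SE 0.060, adjusted p = 0.0223) and GRWD1 (-0.21, SE 0.064, adjusted p = 0.0487). The count was 0 without the OCI-Ly10 libraries or with 24 h and 6 h alone, 1 without TMD8 and 2 without HT or without K422.

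Other genes of ribosome production gave the setting. Of 53 further large-subunit factors, 43 were lower and 4 higher in the GCB lines (median -0.30) and 23 lower and 1 higher in the ABC lines (median -0.16). Of all genes tested, 23.5% were lower and 25.9% higher in the GCB lines, and 13.8% lower and 15.3% higher in the ABC lines. Without the OCI-Ly10 pair at 18 h the 23 became 12, and with raw library sizes and on log2(TPM + 1) it was 37 and 44. RRP15, a nucleolar factor, had -0.58 in the GCB lines (SE 0.053, adjusted p = 1.42e-06) and RPL7L1 had -0.36 (SE 0.041, adjusted p = 8.66e-06), and in the ABC lines XPO1, the export receptor that carries 60S particles out of the nucleus, had -0.42 (SE 0.059, adjusted p = 0.000282) and SBDS, which releases EIF6 from the late particle, had -0.43 (SE 0.064, adjusted p = 0.000379). Of 60 small-subunit factors, 57 were lower and 1 higher in the GCB lines (median -0.40), LTV1 and WDR3 with the smallest p-values (-0.49 and -0.72), and 43 lower and 0 higher in the ABC lines (median -0.24), KRR1 and UTP4 first (-0.43 and -0.36). The 43 became 26 without the OCI-Ly10 pair at 18 h. Of 20 genes of RNA polymerase I and its factors, 15 were lower and 2 higher in the GCB lines (median -0.24), POLR1B first with -0.50 and TAF1D higher with 0.51, and 5 lower and 1 higher in the ABC lines (median -0.12), POLR1C first with -0.44 and POLR2K with -0.23. The 5 became 1 without the OCI-Ly10 pair at 18 h and 3 without that at 12 h or that at 24 h, and with raw library sizes and on log2(TPM + 1) it was 9 and 13. The members' median lay below that of each of these lists in both subtypes, which is a description and not a test.

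Genes for the proteins of the finished subunit were called in the other direction from the factors that assemble it. Of 47 large-subunit ribosomal protein genes, 0 were lower and 31 higher in the GCB lines (median log2 fold change 0.18) and 0 lower and 46 higher in the ABC lines (median 0.35), against 25.9% and 15.3% of all genes called higher. In K422 alone 15 were called higher (median 0.24, 2 below 0), against 22.9% of all genes, and in HT alone 8 (median 0.067, 10 below 0), against 18.6%. The count in the GCB lines was 17 without the K422 pair at 18 h and 19 without that at 24 h. RPL12 and RPLP0 came first in the GCB lines (0.34 and 0.26) and RPL14 and RPLP1 in the ABC lines (0.37 each). This direction held on log2(TPM + 1), with medians of 0.12 and 0.16, and with raw library sizes, with 0.18 and 0.26. In DMSO 46 of these 47 genes fell with hours, with a median of -0.35 per 18 h. In the GCB lines the median share of all ribosomal protein genes in the counts was 17.1% with AZD8186 and 14.8% with DMSO, and in the ABC lines 24.2% with AZD8186 and 19.3% with DMSO. With ribosomal RNA and ribosomal protein genes left out of the scaling, the members' median log2 fold change was -0.53 in the GCB lines and -0.29 in the ABC lines, with 32 and 25 called lower.

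Genes of the MYC network and of cell division were mixed. Of 9 genes around MYC, 1 was lower and 3 higher in the GCB lines, MXD3, a MAX partner that opposes MYC, with 1.36 (SE 0.12, adjusted p = 1.33e-06), and 0 were lower and 2 higher in the ABC lines, MXD4 with 1.02 (SE 0.16, adjusted p = 0.00049) and MXD3 with 0.58. With 9 genes, these counts are near the 25.9% of all genes called higher in the GCB lines and the 15.3% in the ABC lines. In the ABC lines the 2 became 4 without both 6 h pairs and 1 without the OCI-Ly10 pair at 18 h, and on log2(TPM + 1) 3 were lower in the GCB lines and 2 in the ABC lines. Without the K422 pair at 24 h, 2 were lower in the GCB lines. Of 16 G2/M genes, 0 were lower and 5 higher in the GCB lines, CCNB2 and CENPF first (0.54 and 0.56), and 2 were lower and 0 higher in the ABC lines, CCNB1 (-0.32) and CDK1 (-0.23). Pooled over the lines of a subtype, these shares are near those of all genes, 25.9% higher in the GCB lines and 13.8% lower in the ABC lines. The 5 became 9 without the K422 pair at 24 h. The 2 became 4 without the TMD8 pair at 6 h or on log2(TPM + 1), 6 without both 6 h pairs, and 1 without the OCI-Ly10 pair at 18 h or 24 h or the TMD8 pair at 18 h. The GCB lines were unlike here. In HT alone 10 of the 16 G2/M genes were called higher and 0 lay below 0 (median 0.17), against 18.6% of all genes called higher. In K422 alone 5 were higher and 2 lower, against 22.9% and 24.0% of all genes. The part of the MYC network and of the G2/M genes in the members' changes was not tested.

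**Figure D5:**
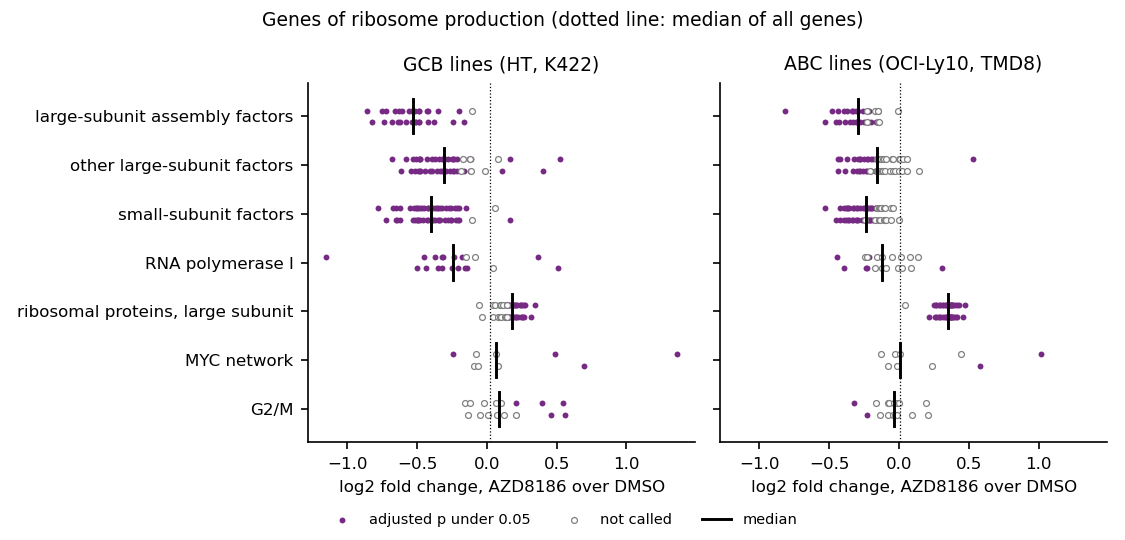
Log2 fold change, AZD8186 over DMSO, of each gene (points, filled where the adjusted p by edgeR was under 0.05) in lists of ribosome production, the MYC network and G2/M, for the GCB and the ABC lines, with each list's median (bars) and the median of all genes (dotted line). The assembly factors had medians of -0.53 and -0.29, and the ribosomal proteins of the large subunit 0.18 and 0.35.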

How the data were processed

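RNA-seq data of 30 libraries were analysed. The authors aligned reads to the human transcriptome (RefSeq transcripts of GRCh38.p12) with HISAT2 and estimated expected counts per gene with RSEM (versions not stated in the paper or labels). Deposited tables, 1 per library, hold expected counts, TPM and FPKM, and the deposited FPKM values were not used. The dose was taken from the study's methods. Expected counts were rounded to whole numbers, filtered with filterByExpr, scaled by TMM and tested with edgeR 4.0.16 (quasi-likelihood, R 4.3.3, two-sided, Benjamini-Hochberg over all genes tested, threshold 0.05) with line and time as terms in the GCB and in the ABC lines. Differences between lines, subtypes and times had the pair as a block. The CPM and log2 ratios of single pairs used a prior count of 2. TPM was tested as log2(TPM + 1) with limma 3.58.1, so that folds of low genes are understated on that scale. DESeq2 1.42.0, other scalings and filters (including 5 CPM in 7 libraries), and leaving out each pair were alternatives. Python 3.11.15 (pandas 2.3.3, numpy 2.4.6, matplotlib 3.10.9) made the summaries.

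Pairs came from the line and time in the labels. In 13 of 15 pairs the libraries deviated together from their group means (r from 0.157 to 0.363). The K422 pairs at 6 h (r = 0.048) and at 24 h (r = -0.032) did not. The 33 members and all lists were chosen with earlier results of these data known. Members named with all their values were the 4 with the largest mean log2 ratio in each subtype, the PeBoW proteins, NPM1, RRP1 and RRP1B, and in other tests the members or genes with the smallest p (at most 5 members per difference and 2 genes per list). In simulated data for the GCB lines, 72.0% of genes changed 1.3-fold and 91.8% of those changed 1.5-fold were recovered, and for the ABC lines 62.0% and 96.0%. For K422 minus HT these were 8.00% and 50.0%. The simulated counts had the same fixed dispersion for every gene. Beyond the change put in, the response did not vary between lines or times. These shares hold for that setting and can exceed what the real tests recover. Symbols of list genes not matched in the tables were left out.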

Additional observations from a re-analysis of the deposited data

Results flagged for a closer look

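Among 99 combinations of a member and a line with 4 pairs, 4 had 1 pair whose log2 ratio stood apart from the other 3 by Dixon's criterion, which chance meets in about 1 of 20 groups. GTPBP4 in OCI-Ly10 had -0.079 at 6 h, where the other times had -0.38 to -0.36. PPAN in K422 had -1.02 at 6 h, against -0.73 to -0.70 at the other times. LAS1L in K422 had -0.17 at 6 h, against -0.62 to -0.59, and LYAR in K422 had -1.20 at 24 h, where the highest of the other times was -0.96.

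A difference in response between the subtypes was called for BOP1 (-0.26), FTSJ3 (-0.33) and NOC2L (-0.30), given as the log2 fold change in the GCB lines minus that in the ABC lines, each by edgeR's test of the difference. Of all genes 6.08% were called in that direction, so 3 of 33 is near the background, and the count depended on single pairs as given above. A difference between K422 and HT was called for 23 members, each with the larger fall in K422, where 9.33% of all genes were called in that direction. Among PeBoW, Brix and 5S factors these were PES1 (-0.38), WDR12 (-0.36), PPAN (-0.33) and RRS1 (-0.45). All helicases were among them, DDX18 with -0.28, DDX21 with -0.48 and DDX56 with -0.39. The GTPases GNL3 and GTPBP4 had -0.24 and -0.31. Of the RNA-modifying and processing factors NOP2 had -0.47, FTSJ3 -0.33 and NIP7 -0.27. The early nucleolar proteins NOP16, RRP1, RRP1B, URB2, NOC2L, NOC3L and MRTO4 had -0.64, -0.51, -0.41, -0.45, -0.40, -0.44 and -0.46. GRWD1 had -0.25, PA2G4 -0.30, LYAR -0.46 and MYBBP1A -0.49.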

How the results depend on the processing

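The count of 25 members in the ABC lines was 13 at an adjusted p under 0.01 and 15 to 27 when each pair was left out, and with the pair as a block it was 27. The count of 32 in the GCB lines was 31 with that block and 31 to 32 without each pair. For single lines the counts without each pair were 12 to 25 in OCI-Ly10 and 0 to 10 in TMD8, and limma on log2(TPM + 1) called 18 in TMD8. On that scale the median of all genes in TMD8 was lower as well, as given above. Differences without each pair were called for 0 to 16 members in GCB minus ABC (7 with no block) and 14 to 26 in K422 minus HT, and slopes of TMD8 minus OCI-Ly10 for 0 to 22. Members that changed with hours in DMSO were 0 with 24 h and 6 h only and 0 to 2 without each line. For these alternatives, here and in the paragraphs above, the shares of all genes called are not given. A count that moves can therefore reflect a change in calls over all genes, and by itself is no result about the members. Without each pair the log2 fold change of NPM1 in the ABC lines was -0.038 to 0.045, above 0 without the TMD8 pair at 18 h or that at 24 h (0.011), and that of MYC was -0.18 to 0.047, and 0.061 without 6 h. On log2(TPM + 1) the members' median was -0.38, -0.60 and -0.59 in OCI-Ly10 at 12, 18 and 24 h, -0.41 in TMD8 at 24 h, -0.36, -0.41 and -0.45 in HT at 6, 12 and 24 h, and -0.60, -0.75 and -0.89 in K422 at 6, 18 and 24 h. The median of all genes moved on that scale too. In the same order of times it was -0.14, -0.20 and -0.22 in OCI-Ly10 and -0.25 in TMD8. In HT it was -0.029, -0.030 and -0.014, and in K422 0.0033, -0.045 and -0.13. Apart from these scale values the cause of each change was not tested. Of 455 single-gene values under alternatives, 429 kept direction and call. With 1 library per line, treatment and time, the only error of a treatment test is the scatter left after the terms for line and time, or for the pair. That scatter also holds differences in response between times, and in the pooled fit of a subtype those between its lines. TMD8 has the fewest pairs, and there the members' median log2 ratio ran from -0.70 at 6 h to -0.10 at 24 h.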

Other observations

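The nucleolar protein gene NOP53, which acts late in 60S assembly, rose where most factors fell, with a log2 fold change of 0.53 in the GCB lines (SE 0.10, adjusted p = 0.000578) and 0.53 in the ABC lines (SE 0.11, adjusted p = 0.00325) by edgeR. It was chosen after its values were seen.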
